A study of Danio rerio with 8 samples.

Results

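Chemokine ligand and receptor genes were compared between zebrafish larvae with a mutation in *seph* (now *selenoh*, which encodes the selenium-containing nuclear protein selenoprotein H) and wild type larvae. The members are, 1 gene left out, the rows of the count table whose Ensembl ID is paired with a symbol that starts with cxcl, ccl, cxcr, ccr or ackr and a digit. This rule found 56 genes among 32434 rows, of which 20769 have a symbol. There are 31 ligand genes and 25 receptor genes, and 5 of the receptors are atypical scavenger receptors (ackr). The study sequenced polyadenylated RNA from larvae, aged 5 days post fertilization, in 4 libraries labelled SepH mutant and 4 labelled WT. The labels give no allele, strain background, clutch or number of larvae per library for either group, and no agent or transgene. Whether the libraries of 1 group are from different clutches is not said, and p-values therefore measure the spread between these libraries only, which may be technical. Where several libraries are listed, M1 to M4 stand for mutant replicates 1 to 4 and W1 to W4 for wild type replicates 1 to 4.

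Chemokines are small secreted proteins that guide migrating cells along gradients. They bind receptors of the G protein-coupled family, and scavenger receptors take the ligand up and degrade it without G protein signalling. CXC and CC ligands are named for the spacing of their first conserved cysteines. In fish both families hold many tandem copies with no single mammalian counterpart, and in zebrafish larvae the system is known for recruiting neutrophils and macrophages to injury and for guiding germ cells and the lateral line primordium.

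The libraries held 51246749 to 56409917 counts, and levels are given as CPM, read counts scaled with TMM factors to a common library size. A count of 0 allows up to 3 counts, or 0.0532 to 0.0588 CPM, and such limits cover counting error only. The mutated gene had 737 to 1225 counts in wild type libraries and 0 to 20 in mutant libraries (two-sided exact permutation test, p = 0.0286, the lowest value possible with 4 against 4), so each library matched its label. Both replicate 3 libraries stood apart on the second principal component, at -59.6 for the mutant and -71.0 for wild type against 15.7 to 27.4 for the other 6. Among 27050 genes tested with edgeR's quasi-likelihood test, 17.1% had a Benjamini-Hochberg adjusted p under 0.05, written as edgeR adjusted p from here on, and are called changed. Of these, 2339 were higher and 2287 lower in the mutant (50.6% higher), and scaling by library size only gave 2713 and 1647 (62.2% higher). Where a range of adjusted p over alternative settings follows an edgeR value, that range also includes values of DESeq2 and limma-voom.

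Among the chemokine genes, 7 ligands and 2 receptors were called higher in the mutant, and 2 ligands and 1 receptor lower. The filter on low counts kept 44 members, 23 ligands and 21 receptors. Of the 23 ligands tested, 7 rose and 2 fell, where 8.65% of all genes tested rose and 8.45% fell. Their median log2 fold change (mutant over wild type) was 0.37, against 0.01 over all genes tested. At least 2-fold changes were called in 6 ligands as higher and 1 as lower, where 2.65% and 3.02% of all genes met the same rule. Of the 21 receptors tested, 2 rose and 1 fell, with a median of 0.09. That is 14.3% of the receptors, near the 17.1% of all genes tested. Both risen receptors have ackr symbols and are counted as scavengers. Of the 16 tested with cxcr or ccr symbols, counted as signalling receptors, none rose and 1 fell by edgeR. This split is by symbol only, and the function of each receptor was not tested. At an unadjusted p under 0.05, 1 of the 16, cxcr3.3, was higher, and DESeq2 called 0 and limma-voom 3 as higher. Over all 27050 genes limma-voom called 5039 higher and 4765 lower, more than the 2339 and 2287 of edgeR. A limma-voom call of a member, here or below, is to be read beside that larger share. Leaving out 1 library moved the small counts: the count of 2 fallen ligands became 0 without M1, M2, W2 or W4, and 1 without M4, W1 or W3. Without M4 both ccl34b.1 and ccl38.6 lost their calls, and the 1 counted was another ligand, ccl34b.4. The 2 risen receptors became 1 without M1, M2, M4, W1 or W2, and the 1 fallen receptor became 2 without M1 or W3. The mutant libraries lay wholly above wild type for 11 of the members tested and wholly below for 4, where the groups did not overlap, in either direction, for 22.1% of all genes tested. A called member, ccl34a.3, passed the filter through the mutant libraries alone and so had to be higher to be tested. In bulk RNA of larvae, a change in the number of cells of a type and a change in RNA per cell cannot be told apart.

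**Figure D1:**
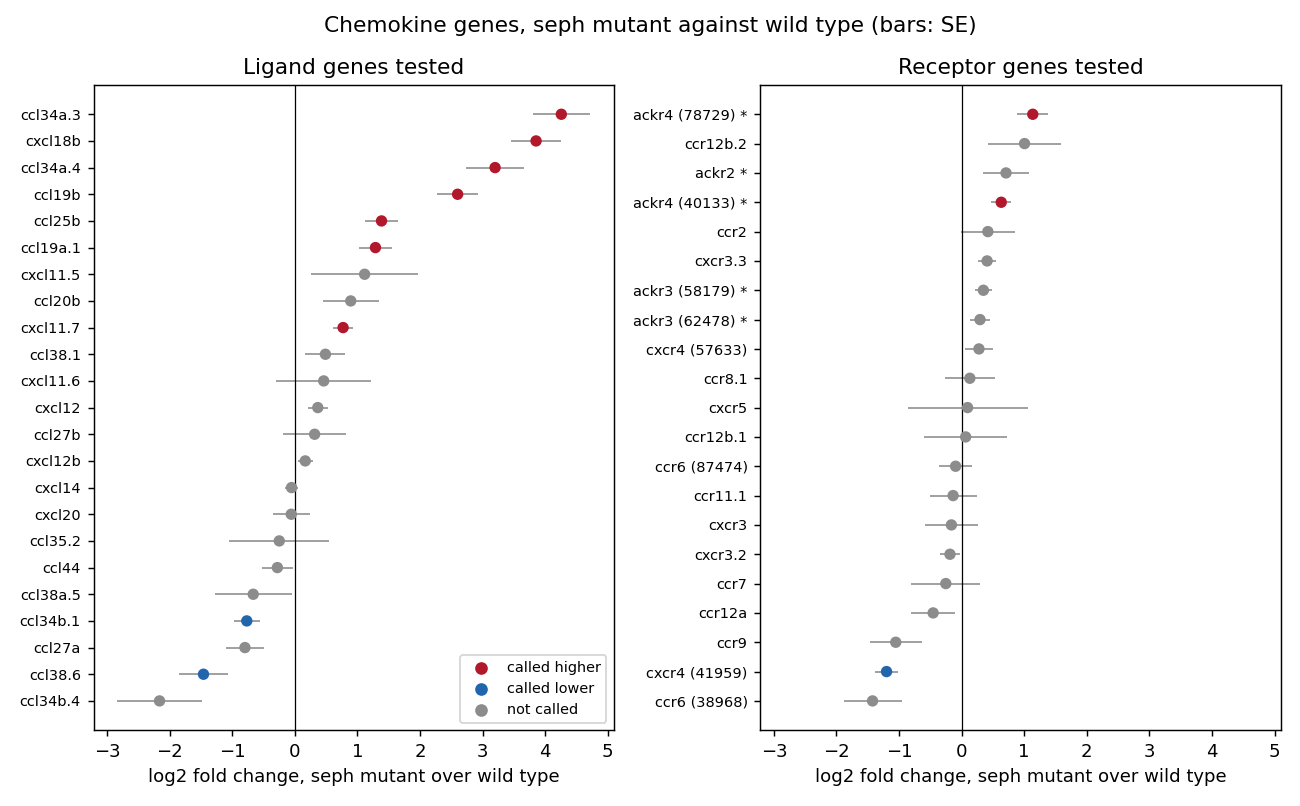
Log2 fold change (mutant over wild type, x axis) of the 23 ligand and 21 receptor genes tested, with bars of 1 SE. Red points are called higher, blue points lower and grey points not called; asterisks mark scavenger receptors, and digits in brackets end the Ensembl ID where 1 symbol has more than 1 row. The called ligands reach 4.26, whereas the called receptors lie between -1.2 and 1.14. The value of 4.26 is that of ccl34a.3, which passed the filter through the mutant libraries alone.

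Among CXC ligands, cxcl18b (ENSDARG00000075045), a fish chemokine that attracts neutrophils in zebrafish, rose most. Mutant replicates 1 to 4 had 17.3, 19.5, 8.95 and 22.7 CPM, and wild type replicates 1 to 4 had 1.40, 0.650, 0.798 and 1.88 CPM. The groups did not overlap, and the lowest mutant library, replicate 3, was still far above the highest wild type library. The means were 17.1 ± 5.88 and 1.18 ± 0.568 CPM (SD, n = 4 each), a log2 fold change of 3.86 ± 0.39 (SE) or 14.5-fold, with an edgeR adjusted p of 0.000475. It kept its call in each of the 20 alternative settings, with log2 fold changes between 3.65 and 4.18. In the GRCz12tu gene table the span of cxcl18b overlaps that of the kinase gene gsk3bb (ENSDARG00000052468), which rose by 0.45 ± 0.13. The strand setting of the counting is not given in the sources used here, so reads of the overlap could have been counted for either gene.

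The cxcl11 genes encode ligands of the receptor Cxcr3, and in zebrafish ligands of this group attract macrophages. The counts of cxcl11.5, cxcl11.6 and cxcl11.7 were nearly the same. Each pair of these genes was within 2% or 3 counts of each other in at least 6 of the 8 libraries, while single libraries differed widely. How reads were divided among these genes is not given in the sources used here, so their values are uncertain and not independent of each other. They still enter the 23 ligands tested, the ligand median and the 8 CXC ligands tested as separate rows. Both cxcl11.5 and cxcl11.7 count among the members whose mutant libraries lay wholly above wild type. cxcl11.7 (ENSDARG00000093779) had 882, 1022, 924 and 1104 counts in mutant replicates 1 to 4 and 445, 468, 581 and 692 in wild type. All 4 mutant libraries were above all 4 of wild type. Its level was 17.7 ± 1.95 CPM against 10.4 ± 2.31 CPM (SD, n = 4 each), a rise of 0.77 ± 0.16 on the log2 scale or 1.71-fold (edgeR adjusted p = 0.0115).

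The other 2 copies were not called, and each differed from cxcl11.7 in single libraries. cxcl11.5 (ENSDARG00000092423) had 0 counts in wild type replicate 2, where cxcl11.7 had 468, and lay at 1.12 ± 0.86 on the log2 scale with groups that did not overlap. Without that library cxcl11.5 rose by 0.70 (edgeR adjusted p = 0.0487, range 0.0239 to 0.612 in the alternative settings). cxcl11.6 (ENSDARG00000094706) had 20 counts in mutant replicate 1, where cxcl11.7 had 882, and lay at 0.46 ± 0.76. Without that library cxcl11.6 rose by 0.87 (edgeR adjusted p = 0.0304, which is also the lowest of its alternative settings, the highest being 0.995). cxcl11.6 also had 404 counts in wild type replicate 2, below the 468 of cxcl11.7. Both copies were chosen after their values were seen. In the GRCz12tu table cxcl11.7 and cxcl11.6 are consecutive protein-coding genes. A further copy, cxcl11.8, had 0 to 7 counts and was not tested.

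**Figure D2:**
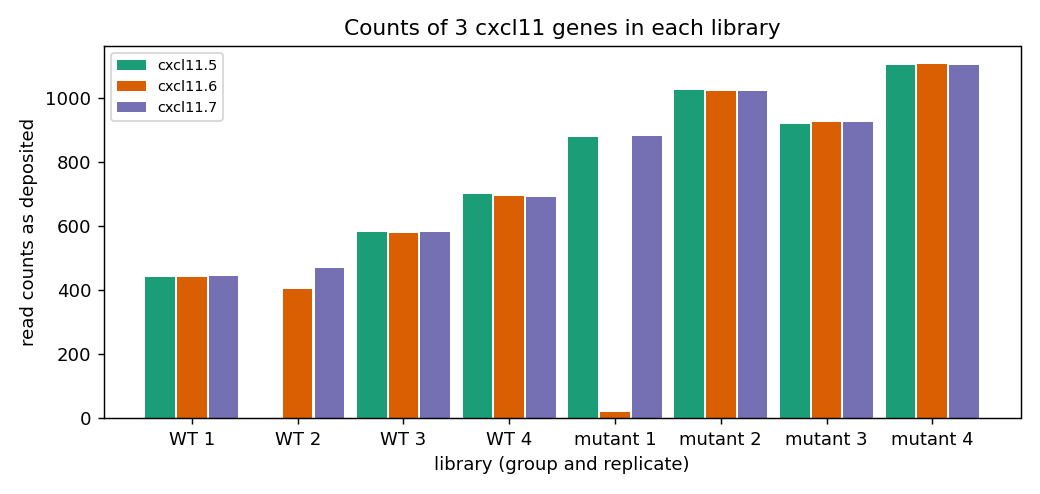
Deposited read counts (y axis, from 0) of cxcl11.5, cxcl11.6 and cxcl11.7 in each of the 8 libraries (x axis), 1 bar per gene. The 3 bars are level in 6 libraries, but cxcl11.5 has no counts in wild type replicate 2 and cxcl11.6 has 20 in mutant replicate 1.

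Both cxcl12 genes, whose products are the ligands of Cxcr4 and Ackr3 and guide germ cells and the lateral line primordium in zebrafish embryos, were not called by edgeR with all 8 libraries and genotype as the only term. The first, cxcl12 (ENSDARG00000037116), whose symbol is a synonym of cxcl12a in the GRCz12tu table, had 109, 105, 69.96 and 106 CPM in mutant replicates 1 to 4. Wild type libraries had 72.5, 81.3, 64.2 and 84.1 CPM. Mutant libraries 1, 2 and 4 were above all wild type libraries, and mutant replicate 3 was below 3 of them. The log2 fold change was 0.37 ± 0.16 (edgeR adjusted p = 0.139, range 0.00814 to 0.298 in the alternative settings). Leaving out mutant replicate 3 gave a called rise of 0.50 (edgeR adjusted p = 0.0196), and leaving out both replicate 3 libraries a rise of 0.43 (0.00814). With all 8 libraries limma-voom called it as well (0.38, limma-voom adjusted p = 0.0238). The second, cxcl12b (ENSDARG00000055100), ranged from 26.4 to 37.2 CPM in mutant libraries and from 27.0 to 32.8 CPM in wild type, with a log2 fold change of 0.17 ± 0.12. cxcl14 (ENSDARG00000056627), a ligand made by epithelia in mammals, lay at -0.05 ± 0.11, with 34.3 to 41.0 CPM in the mutant and 34.9 to 45.4 CPM in wild type, and took a small positive sign with scaling by library size only (0.024) or without wild type replicate 4 (0.021). A test that misses its threshold does not show that levels were equal. Symbols cxcl8a, cxcl8b.1, cxcl13, cxcl11.1, ccl20a.3 and cxcr2 were not matched to a row and are not analysed here.

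Among 15 CC ligands tested, 5 were called higher and 2 lower, where 8.65% of all genes tested rose and 8.45% fell. Log2 fold changes of these CC ligands ran from -2.16 to 4.26, against -0.06 to 3.86 for the 8 CXC ligands tested. The top value is that of ccl34a.3, which passed the filter through the mutant libraries alone. ccl34a.3 (ENSDARG00000094983) and ccl34a.4 (ENSDARG00000090873) are consecutive protein-coding genes in the GRCz12tu table and both rose. ccl34a.3 had 128, 95, 59 and 69 counts in mutant replicates 1 to 4 and 2, 2, 7 and 6 in wild type. It was thus close to its detection limit in wild type and present in each mutant library. Over all libraries, 351 counts in the mutant against 17 in wild type give a ratio of 19.6 (95% exact counting interval 12.1 to 34.1). This interval leaves out the spread between libraries. The fitted log2 fold change was 4.26 ± 0.46 (edgeR adjusted p = 0.000602).

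ccl34a.4 had 5.37, 6.22, 4.75 and 5.73 CPM in mutant replicates 1 to 4, and 0.265, 0.344, 1.38 and 0.392 CPM in wild type. The mutant libraries were close to each other, while wild type replicate 3 was several times above the other wild type libraries and still below every mutant library. ccl34a.4 rose by 3.2 ± 0.47 on the log2 scale, 9.19-fold (edgeR adjusted p = 0.00242, range 5.53e-11 with DESeq2 to 0.0110 in the alternative settings). Without wild type replicate 3 the rise was 4.04 on the log2 scale.

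The ccl19 and ccl25 genes, whose mammalian counterparts guide dendritic cells and T cells through Ccr7 and thymocytes and gut lymphocytes through Ccr9, also rose. ccl19b (ENSDARG00000039351) had 25.0, 42.4, 14.2 and 27.2 CPM in mutant replicates 1 to 4, against 3.71, 4.05, 3.74 and 6.43 CPM in wild type. Every mutant library was above every wild type library, and mutant replicate 3 was the lowest of its group. The rise was 2.60 ± 0.33 on the log2 scale, 6.07-fold (edgeR adjusted p = 0.00121).

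Its relative ccl19a.1 (ENSDARG00000058389) had 8.76, 6.35, 3.40 and 5.36 CPM in the mutant and 2.16 to 2.75 CPM in wild type. The groups did not overlap, and the log2 rise was 1.29 ± 0.26 or 2.44-fold (edgeR adjusted p = 0.0102). ccl19a.2 (ENSDARG00000035632), next to ccl19a.1 and overlapping its span in the GRCz12tu table, did not pass the filter and was chosen after its values were seen. It had 226, 127, 1 and 45 counts in mutant replicates 1 to 4 and 0, 4, 5 and 9 in wild type. The mutant libraries spread widely, and replicate 3 lay within the wild type range. Over all libraries 399 counts against 18 give a ratio of 21.1 (95% exact counting interval 13.2 to 35.9, without the spread between libraries). With no filter on low counts its log2 fold change was 4.36 ± 1.18, and without both replicate 3 libraries it was 4.80 ± 0.87, with edgeR adjusted p = 0.0380 and 0.00573. Without replicate 3 it passed the filter through the mutant libraries alone, and so had to be higher to be tested.

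ccl25b (ENSDARG00000070873) had 66.7, 74.4, 29.8 and 73.7 CPM in mutant replicates 1 to 4 and 25.8, 25.4, 18.5 and 23.9 CPM in wild type. In both groups replicate 3 was the lowest library, and the groups did not overlap. The log2 rise was 1.39 ± 0.27, 2.61-fold (edgeR adjusted p = 0.00809). It held its call in each of the 20 alternative settings, and without both replicate 3 libraries the rise was 1.51 ± 0.08.

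Other tandem CC ligands went the opposite way. ccl34b.1 (ENSDARG00000093608) had 2.17, 2.0, 3.40 and 2.53 CPM in the mutant and 3.37, 4.74, 5.21 and 3.88 CPM in wild type. The groups overlapped through mutant replicate 3 and wild type replicate 1. It fell by 0.77 ± 0.21 on the log2 scale (edgeR adjusted p = 0.0363, range 0.00629 to 0.102 in the alternative settings). The call was lost without M1, M2, M4, W2, W3 or W4, and with scaling by library size only, with log2 fold changes of -0.95 to -0.66 when 1 library was left out.

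ccl38.6 (ENSDARG00000041923), a ligand of a tandem cluster, had 10, 24, 28 and 11 counts in the mutant and 46, 51, 35 and 58 in wild type. Mutant libraries were all below those of wild type, and it fell by 1.46 ± 0.39 (edgeR adjusted p = 0.0316, range 0.00338 to 0.0848 in the alternative settings). That call did not hold without M1, M2, M4, W1, W2 or W4, and with 1 library left out the log2 fold change was -1.73 to -1.26. ccl34b.4 (ENSDARG00000094002), chosen after its values were seen, had 5, 6, 16 and 0 counts in the mutant and 25 to 32 in wild type. These groups did not overlap either, but the gene was not called (-2.16 ± 0.68, edgeR adjusted p = 0.0567, range 0.00735 to 0.144 in the alternative settings). It fell by 3.01 without mutant replicate 3 and by 1.76 without mutant replicate 4, where it was called (0.0189 and 0.0434). Without mutant replicate 3 it passed the filter through the wild type libraries alone, and so had to be lower to be tested.

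The remaining CC ligands tested had log2 fold changes between -0.80 and 0.89 and were not called by edgeR with all 8 libraries. ccl27a (ENSDARG00000058570), a relative of the mammalian skin chemokine, lay at -0.80 ± 0.30, with 0.777 to 1.77 CPM in the mutant and 1.67 to 3.24 CPM in wild type. By limma-voom ccl27a was called lower (-0.91, limma-voom adjusted p = 0.0352). Its copy ccl27b (ENSDARG00000079713) lay at 0.32 ± 0.50. ccl20b (ENSDARG00000094511), whose mammalian counterpart attracts lymphocytes and dendritic cells through Ccr6, had 0.939, 1.48, 0.620 and 2.32 CPM in the mutant and 0.341 to 0.941 CPM in wild type (0.89 ± 0.45, not called). ccl44 (ENSDARG00000074772) lay at -0.28 ± 0.25. ccl20b and ccl44 were also chosen after their values were seen. The other ligands tested, ccl35.2, ccl38.1, ccl38a.5 and the CXC ligand cxcl20, were not called and had overlapping groups. Among the 8 ligands that did not pass the filter, ccl19a.2 apart, no library of any of them had more than 23 counts. ccl38a.4 (ENSDARG00000041917), next to ccl38a.5 in the GRCz12tu table and chosen after its values were seen, had 2, 3, 2 and 4 counts in the mutant and 9, 12, 6 and 23 in wild type. Its groups did not overlap, and with no filter on low counts it fell by 2.22 ± 0.62 (edgeR adjusted p = 0.0423).

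**Figure D3:**
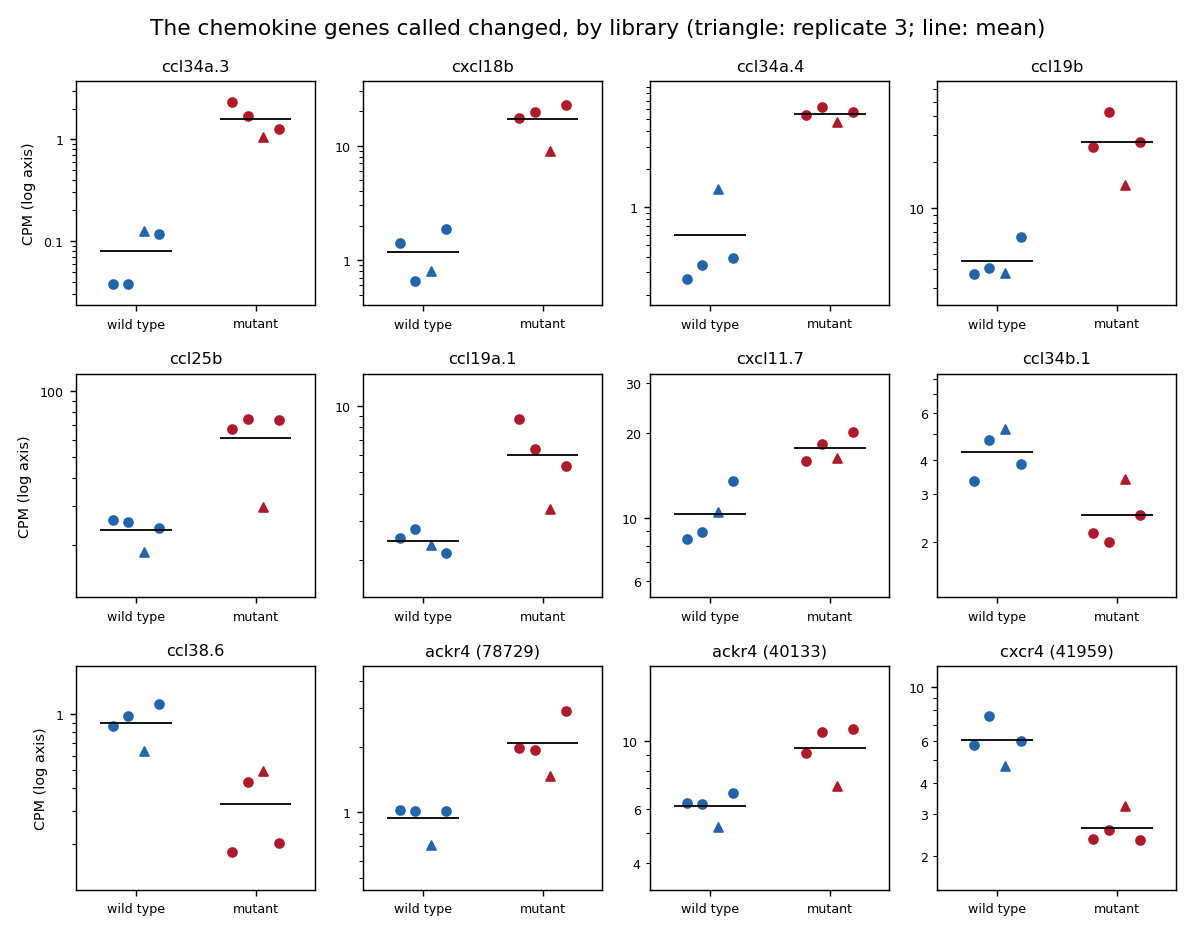
CPM on a log axis (y) of the 12 members called changed, 1 point per library in each group (x), with a line at the group mean and triangles for replicate 3. Mutant points lie above wild type points in the 7 risen ligands and both ackr4 genes and below them in ccl38.6 and cxcr4, and the groups overlap in ccl34b.1 only.

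Both rises among the receptors were in ackr genes, 2 of the 5 tested, where 8.65% of all genes tested rose. Whether ackr genes differed from the other receptors was not tested. Both ackr4 genes, whose mammalian counterpart takes up CCL19, CCL21 and CCL25, were higher. ackr4 ENSDARG00000078729 had 1.97, 1.93, 1.47 and 2.91 CPM in the mutant and 1.02, 1.01, 0.707 and 1.02 CPM in wild type. It rose by 1.14 ± 0.25 on the log2 scale, 2.20-fold (edgeR adjusted p = 0.0145). ackr4 ENSDARG00000040133 had 9.16, 10.7, 7.14 and 10.9 CPM against 6.25, 6.21, 5.22 and 6.78 CPM, a rise of 0.63 ± 0.16 or 1.55-fold (edgeR adjusted p = 0.0240, range 0.00286 to 0.0720 in the alternative settings). Neither pair of groups overlapped, and replicate 3 was the lowest library in both groups for both genes. The second call was lost without M1, M2, M4, W1 or W2, with log2 fold changes of 0.56 to 0.75 when 1 library was left out.

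Of the ackr3 genes, whose products clear Cxcl12, ENSDARG00000058179 had 40.8, 44.0, 43.1 and 38.2 CPM in the mutant and 28.6, 28.1, 42.9 and 31.0 CPM in wild type. The groups overlapped through wild type replicate 3 alone. The log2 fold change was 0.35 ± 0.14 and not called (edgeR adjusted p = 0.124, range 0.00304 to 0.302 in the alternative settings), and without wild type replicate 3 it rose by 0.51 (0.00449). ackr3 ENSDARG00000062478 lay at 0.29 ± 0.15 with 3.08 to 4.50 CPM against 2.74 to 3.24 CPM. ackr2 (ENSDARG00000086314), a scavenger of inflammatory CC ligands in mammals, lay at 0.71 ± 0.37 with overlapping groups and was chosen after its values were seen.

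The cxcr4 gene ENSDARG00000041959 was the signalling receptor called changed. Cxcr4 is the signalling receptor for Cxcl12. Mutant replicates 1 to 4 had 2.35, 2.57, 3.23 and 2.32 CPM, and wild type replicates 1 to 4 had 5.76, 7.61, 4.72 and 6.0 CPM. The groups did not overlap, and the replicate 3 libraries were the closest to each other. It fell by 1.2 ± 0.18 on the log2 scale, to 43.5% of wild type (edgeR adjusted p = 0.00291), and kept its call in each of the 20 alternative settings. The other cxcr4 gene, ENSDARG00000057633, had 2.66 to 3.54 CPM in the mutant and 1.87 to 3.59 CPM in wild type, and was not called (0.28 ± 0.23), except by limma-voom (0.46). The files do not say which of the pair is the a copy and which the b copy. The difference between the 2 copies was not tested.

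**Figure D4:**
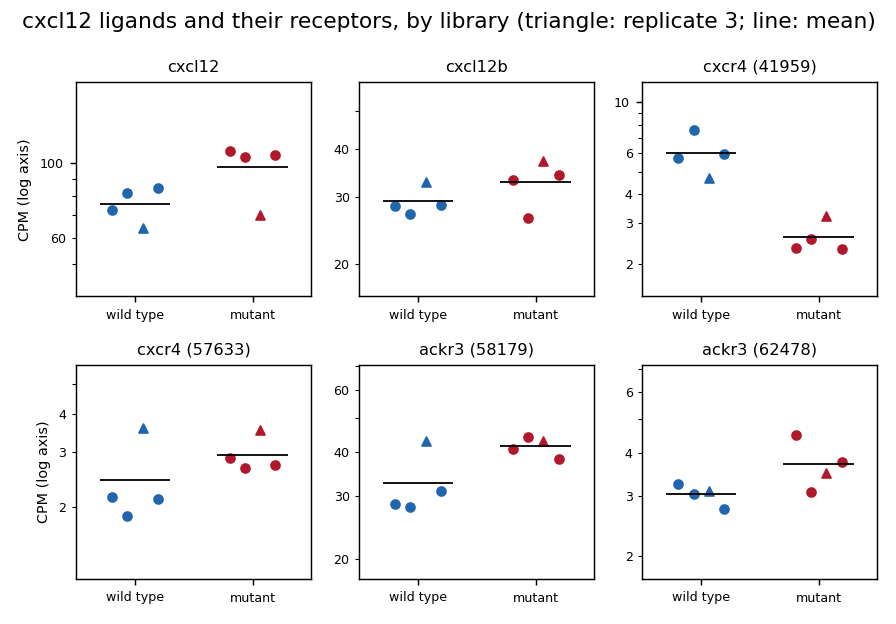
CPM on a log axis (y) of the cxcl12, cxcr4 and ackr3 genes in each library by group (x), with a line at the group mean and triangles for replicate 3. The groups are separate in cxcr4 ENSDARG00000041959 and overlap in the other 5 genes.

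Receptors of the other ligands were not called by edgeR with all 8 libraries and genotype as the only term. ccr9 (ENSDARG00000055186), the receptor for Ccl25 in mammals, had 1.81, 3.0, 1.1 and 1.57 CPM in the mutant and 4.98, 5.49, 1.49 and 3.59 CPM in wild type. Wild type replicate 3 fell within the mutant range, and the other 3 wild type libraries were above all mutant libraries. The log2 fold change was -1.05 ± 0.42 (edgeR adjusted p = 0.117, range 0.0125 to 0.279 in the alternative settings). Without wild type replicate 3 ccr9 fell by 1.32 (0.0171), and without both replicate 3 libraries by 1.14 (0.0182). limma-voom called it with all 8 libraries (-1.27, adjusted p = 0.0150).

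ccr7 (ENSDARG00000044561), the receptor for Ccl19 in mammals, had 6, 40, 10 and 20 counts in the mutant and 13 to 27 in wild type. Its log2 fold change was -0.25 ± 0.55, and 0.040 without mutant replicate 1. Of the ccr6 genes, ENSDARG00000038968 had 13, 5, 4 and 6 counts against 23, 14, 13 and 22 in libraries of similar size. In CPM its groups did not overlap, by a narrow margin, and it was not called (-1.42 ± 0.46, edgeR adjusted p = 0.0641, range 0.0321 to 0.166 in the alternative settings). It was called by DESeq2 (adjusted p = 0.0485), by limma-voom (0.0321) and without M1 by edgeR (0.0374). Without M1 it passed the filter through the wild type libraries alone, and so had to be lower to be tested. ccr6 ENSDARG00000087474 lay at -0.10 ± 0.27, and took a positive sign in fits that left out M1 (0.063) or W3 (0.01). ccr2 (ENSDARG00000079829), a monocyte receptor in mammals, had 8 to 28 counts in the mutant and 10 to 19 in wild type (0.42 ± 0.43). ccr10 (ENSDARG00000040643), the receptor for CCL27 in mammals, had 0 to 10 counts in any library and was not tested. The other CC receptors tested, ccr8.1, ccr11.1, ccr12a and both ccr12b genes, had log2 fold changes from -0.46 to 1.01, overlapping groups and no call, and ccr8 did not pass the filter.

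Among the receptors for Cxcl11, cxcr3.3 (ENSDARG00000070669) had 5.73, 6.31, 5.79 and 6.99 CPM in the mutant and 4.66, 3.92, 4.46 and 5.68 CPM in wild type. The groups did not overlap, but by a small margin, and the gene was not called (0.41 ± 0.14, edgeR adjusted p = 0.0852, range 0.0164 to 0.222 in the alternative settings). It rose by 0.50 without wild type replicate 4, and by 0.50 with limma-voom (adjusted p = 0.0164). Its neighbour cxcr3.2 (ENSDARG00000041041), which guides macrophages in zebrafish, lay at -0.19 ± 0.16 with 1.61 to 1.88 CPM against 1.76 to 2.19 CPM. cxcr3 (ENSDARG00000007358) lay at -0.16 ± 0.42 and changed sign without mutant replicate 3 (0.06) or wild type replicate 2 (0.23). cxcr5 (ENSDARG00000010514), a B cell receptor in mammals, had 0 to 25 counts in any library. Its log2 fold change, 0.09 ± 0.96, had no stable sign. The genes listed as cxcr1, receptors for Cxcl8, did not pass the filter. cxcr1 ENSDARG00000052088 had 20, 5, 5 and 21 counts in the mutant and 1, 7, 0 and 6 in wild type, whereas ENSDARG00000054975 had 0, 0, 0 and 3 against 4, 10, 6 and 2. With no filter on low counts neither was called, with log2 fold changes of 1.75 ± 0.93 (edgeR adjusted p = 0.263) and -2.74 ± 1.12 (0.143).

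Genes that act beside the members were read from the same fit, in which 8.65% of all genes tested rose and 8.45% fell. Of 38 tested genes that carry chemokine signals inside cells, 6 rose and 5 fell, and their median log2 fold change was -0.02 against 0.01 over all genes. stat3, a transcription factor activated by cytokines, rose by 1.22 ± 0.12, the kinase genes ptk2b (ENSDARG00000039577) and pak2 by 0.56 ± 0.08 and 0.63 ± 0.10, and the G protein subunit gnai2 (ENSDARG00000018174) by 0.46 ± 0.08. The count of 5 that fell became 0 to 3 with any library except wild type replicate 3 left out, and 8 without wild type replicate 3.

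Of 27 tested inducers and regulators of chemokine transcription, 10 rose and none fell (edgeR; none was lower at an unadjusted p under 0.05, and DESeq2 called 0 and limma-voom 1 as lower). Their median log2 fold change was 0.44. The 10 include stat3, also counted above, and irf8, also counted among the macrophage markers below, so these lists are not separate. Entries il1b, il6, nfkb1 and rela were not matched to a row, and tnfa and ifng1 did not pass the filter. socs3 (ENSDARG00000026611), an inhibitor of cytokine signalling, rose by 2.58 ± 0.21, irf8, a macrophage transcription factor, by 1.54 ± 0.22, and nfkb2, an NF-kB subunit, by 0.71 ± 0.10. Leaving out M1, M4 or W1 gave 6 such calls, and leaving out M2 or W2 gave 5. Without both replicate 3 libraries 14 rose and 1 fell, in a fit where 4200 genes were higher and 3956 lower among 27150 tested. Among 11 other chemokine-related genes tested, cmtm3 rose by 0.88 ± 0.12 and lta4h, which makes the neutrophil attractant leukotriene B4, fell by 0.49 ± 0.14, and 9 were not called. The lta4h call was lost without mutant replicate 1 or 2 or any 1 of the 4 wild type libraries.

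Markers of cells that make or receive chemokines were read from the same fit, in which 8.65% of all genes tested rose and 8.45% fell. The part of these markers in the members' changes was not tested. Of 26 macrophage markers tested 6 rose and 3 fell. Their summed level was 1544 to 2460 CPM in mutant libraries and 724 to 1145 CPM in wild type, and 86.2% of it was 1 gene, apoeb, an apolipoprotein gene that rose by 1.43 ± 0.22. Without apoeb the sums were 204 to 319 CPM and 141 to 189 CPM. In that list marco, a scavenger receptor gene, rose by 1.56 ± 0.21. The 3 that fell were cd74b, of antigen presentation (by 1.5), coro1a (by 0.50) and lcp1 (by 0.50), both actin-binding leukocyte genes, named after their values were seen. Of 10 neutrophil markers 4 rose and 2 fell, with sums of 279 to 331 CPM and 143 to 215 CPM. In that sum 28.7% was mmp9, which rose by 2.62 ± 0.49, and without it the sums were 188 to 197 CPM and 133 to 171 CPM. Within that list adam8a, a metalloprotease gene, rose by 2.04 ± 0.18, while lyz, which encodes lysozyme, fell by 2.59 ± 0.28 and npsn by 0.91 ± 0.19. Here mmp9 and npsn were named after their values were seen. Of 13 lymphoid and thymus markers none rose (edgeR, DESeq2, limma-voom and unadjusted edgeR p all gave 0) and 4 fell, with sums of 60.7 to 85.9 CPM against 94.6 to 115 CPM. The gene tox made up 68.9% of that sum, and without it the sums were 18.2 to 22.5 CPM and 30.0 to 36.1 CPM. The recombinase gene rag1 fell by 2.88 ± 0.23, ikzf1 by 1.32 ± 0.20 and il7r by 1.5 ± 0.27.

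Markers of tissues were read in the same way. Of 17 endothelial markers 5 rose and none fell by edgeR (0 at an unadjusted p under 0.05, 0 by DESeq2 and 1 by limma-voom; sums 291 to 345 CPM against 235 to 257 CPM), and 3 rose when M1, M2, W1, W2 or W4 was left out. The endothelial scavenger receptor gene stab2 rose by 1.33 ± 0.21. Of 18 skin and epithelium markers 6 rose and none fell by edgeR (0 at an unadjusted p under 0.05, 0 by DESeq2 and 1 by limma-voom). Among the risen was the tight junction gene cldni (1.07 ± 0.10), with summed levels that overlapped (30417 to 47596 CPM against 23248 to 39948 CPM). Of 22 lateral line and hair cell markers 1 rose and 4 fell (579.6 to 647 CPM against 552 to 591 CPM). The homeobox gene prox1, also expressed in liver, lens and lymphatic vessels, fell by 1.16 ± 0.09. No matched gene of these 6 marker lists had 0 counts in every library.

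The mutant library of replicate 3 was the lowest of its group for 6 of the 7 risen ligands, the exception being cxcl11.7, and for both ackr4 genes. It was also the highest mutant library for both fallen ligands and for the fallen cxcr4 gene. Without both replicate 3 libraries, 9 ligands rose and 3 fell, and 3 receptors rose and 2 fell. Calls over all genes also grew in number, to 4200 higher and 3956 lower among 27150 tested. With all 8 libraries these were 2339 and 2287 among 27050. Whether members gained calls more often than other genes was not tested. The members added were cxcl12 and ccl19a.2 among the ligands that rose, ccl34b.4 among those that fell, ackr3 ENSDARG00000058179 among the risen receptors and ccr9 among the fallen ones. Of these, ccl19a.2 was tested only because the filter then passed it through the mutant libraries, so its rise adds no support to the count. ccl34b.4 then passed the filter through the wild type libraries alone, so its fall adds no support either.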

How the data were processed

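The authors deposited whole-number read counts per Ensembl gene, 1 column per sample, analysed as raw counts. The tools named, per the submitters' processing notes, are STAR 2.3.0e with HTSeq 0.6.0. Build, annotation, strand setting and multiply mapping reads are points not given in the sources used here, and values of tandem copies and overlapping genes are uncertain. No column of another sample was present.

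Symbols came from a table of Ensembl IDs, and synonyms and gene order from the GRCz12tu RefSeq gene table, whose build may differ. Of 219 entries in the context lists, 48 were not matched. Genes were filtered with filterByExpr (minimum count 10), scaled with TMM and tested with edgeR 4.0.16 (quasi-likelihood, R 4.3.3), genotype as the only term, with Benjamini-Hochberg adjustment over 27050 genes and a threshold of 0.05. Each SE is the log2 fold change over the root of its F statistic. Steps were tested on simulated counts.

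As alternatives the counts were scaled by library size only, by upper quartiles or by size factors of DESeq2 1.42.0, and tested with its Wald test or with limma-voom (limma 3.58.1). Further ones were other filters and thresholds, a replicate block, leaving out libraries and removing genes with identical counts. A gene was left out of the member rule and is not analysed here. Members and lists were chosen with earlier results of these data known. Members named are all called ones, a set of ligand and receptor pairs with known roles, and those said to be chosen after their values were seen. From each list up to 4 called genes with the smallest p were eligible to be named. Wild type replicates 1 and 2 were the closest libraries of a group (mean squared difference 8.34 in units of counting noise, others 31.3 to 154). They differed by more than counting noise and were used as separate libraries. That difference cannot tell technical replicates from separate samples.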

Additional observations from a re-analysis of the deposited data

Results flagged for a closer look

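In 7 of 76 groups of 4 libraries examined for the named members, 1 library lay apart from the other 3 by Dixon's criterion, which chance meets in about 1 in 20 groups. Wild type replicate 3 was that library in 4 of them. It was high for ccl34a.4 (1.38 CPM, others 0.265 to 0.392), for ccr6 ENSDARG00000087474 (0.907 CPM, others 0.682 to 0.707) and for cxcr4 ENSDARG00000057633 (3.59 CPM, others 1.87 to 2.16), and low for ackr4 ENSDARG00000078729 (0.707 CPM, others 1.01 to 1.02). Mutant replicate 3 was low for cxcl12 (69.96 CPM, others 105 to 109). Wild type replicate 4 was high for ccl19b (6.43 CPM, others 3.71 to 4.05). Mutant replicate 4 was the single mutant library with reads for cxcr1 ENSDARG00000054975 (0.0549 CPM, which is 3 counts).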

How the results depend on the processing

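Of the 12 called members, 6 kept their call in every alternative that tested them (ccl19b, ccl25b, ccl34a.3, ccl34a.4, cxcl18b and cxcr4 ENSDARG00000041959), and 10 named members that were not called gained a call in at least 1. Of the 6, ccl34a.3 passed the main filter through the mutant libraries alone. It therefore had to be higher to be tested in that fit. The 7 risen ligands became 7 to 9 with 1 library left out. The 9 came without mutant replicate 3, where 24 ligands were tested. In that fit ccl19a.2 passed the filter through the mutant libraries alone, so a rise of ccl19a.2 adds no support. The count of fallen ligands, 2 with no library left out (ccl34b.1 and ccl38.6), became 0 to 3, and without M4 its 1 member was ccl34b.4. The 3 came without mutant replicate 3 and included ccl34b.4, which then passed the filter through the wild type libraries alone. The counts of 2 risen receptors and 1 fallen receptor became 1 to 3 and 1 to 2. Without M1 the added fallen receptor was ccr6 ENSDARG00000038968, which then passed the filter through the wild type libraries alone. Among all genes 1262 to 3667 were higher and 1235 to 3374 lower. Fallen ligands numbered 1 with scaling by library size only and 1 with a minimum mean of 1 CPM. limma-voom with quality weights gave 4 fallen ligands, 6 risen and 3 fallen receptors, and 5039 higher and 4765 lower genes, while the DESeq2 Wald test gave 2 fallen receptors. An adjusted p under 0.01 left 0 fallen ligands and 0 risen receptors by edgeR (955 higher and 915 lower genes). The added condition of a 2-fold change left 1 and 1 (718 and 816 genes). Without both replicate 3 libraries 2 receptors fell, and 4200 genes were higher and 3956 lower. The cause of these shifts was not tested.

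Signs of members near 0 were not stable. With 1 library left out, log2 fold changes ran from -0.10 to 0.021 for cxcl14, -0.78 to 0.56 for cxcr5, -0.21 to 0.063 for ccr6 ENSDARG00000087474, -0.90 to 0.040 for ccr7 and -0.38 to 0.23 for cxcr3. The sign also changed for cxcl14 with library size only (0.024), for cxcl11.6 and cxcr5 with limma-voom (-0.58 and -1.09), and without both replicate 3 libraries for cxcr5 (-0.052) and ccr6 ENSDARG00000087474 (0.015). The level of *selenoh* was 0.0348% to 0.724% of wild type with 1 library left out.

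Same-numbered libraries deviated together for replicates 3 (correlation 0.460) and 4 (0.237) but not above 0.1 for replicates 1 (0.0950) and 2 (0.0662). Mutant replicates 1, 3 and 4 correlated best with the wild type library of their number, but mutant replicate 2 with wild type replicate 1 (0.124). Pairing by number is thus neither shown nor excluded, and the numbers were not taken as pairs. With the replicate block 3783 genes were higher and 3623 lower, 3 receptors fell (cxcr4 ENSDARG00000041959, ccr9 and ccr6 ENSDARG00000038968), cxcl12, ccl34b.4 and cxcr3.3 gained calls (edgeR adjusted p = 0.0296, 0.0451 and 0.0425, with 0.0125 for ccr9 and 0.0399 for ccr6) and cxcr5 lay at -0.067. Low counts limit what can be said of 12 members that were not tested and of receptors such as ccr7, cxcr5 and ccr2.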
